A study of Mus musculus with 15 samples.

Results

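The genes described here are 10 genes of the epithelial-mesenchymal transition (EMT): the transcription factors Snai1, Snai2, Twist1, Twist2, Zeb1 and Zeb2, the cadherins Cdh1 (E-cadherin) and Cdh2 (N-cadherin), the epithelial adhesion molecule Epcam and the intermediate filament gene Vim (vimentin). They were named as a list of genes, and all 10 are in each of the 3 count tables. After a filter on low counts 13902 genes were tested in the MC table, 18407 in the HC table and 15733 in the KC and KMC table. Each was read in all 15 libraries, and each group was compared with its own control.

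The RNA came from mouse pancreas of strain C57BL/6, in a study of the kinase HPK1 (gene Map4k1) and of its kinase-dead mutant M46 in acinar cells. The question of each comparison was what the transgene changed in the pancreas, after cerulein in the MC and HC experiments and against KC mice in the KMC experiment. Each library was made from RNA pooled from 3 mice, and the labels do not say whether the libraries of a group came from different pools, so the p-values measure the spread between these libraries, which may be technical.

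The 3 MC libraries (M46 with Bac-cre) and their 3 controls, labelled B control, were from mice aged 2 months. The 3 libraries labelled HC (HPK1/B) and their 2 controls, labelled WT, were from mice aged 4 months. The label WT does not name Bac-cre, so Cre may differ together with the HPK1 transgene in HC against control. The 2 KMC libraries, with M46, were from mice aged 9 months and the 2 KC libraries, without it, from mice aged 15 months, so that age cannot be told apart from genotype in that comparison. By the series' design text the MC and HC groups and their controls had been treated with cerulein, a secretagogue that injures acinar cells and induces pancreatitis; the labels of single libraries do not give it. Bac-cre is a tamoxifen-inducible Cre driven by the elastase I promoter, which is active in acinar cells, and the HPK1 and M46 transgenes stand behind a stop cassette that this Cre removes. The labels give pancreas as the tissue of all 15 libraries, whereas the paper describes those of KMC and KC as tumour (PDAC) samples, so the KMC and KC values may be those of tumour tissue. In bulk RNA of either kind fibroblasts, leukocytes, endothelium and islets contribute beside the cells in which the transgene was switched on.

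EMT is the process by which an epithelial cell loses its junctions and apical-basal polarity and takes on mesenchymal features. Snai1 and Snai2 (zinc finger repressors), Zeb1 and Zeb2 (zinc finger and homeodomain repressors) and Twist1 and Twist2 (basic helix-loop-helix factors) bind E-box motifs, and several of them repress Cdh1 directly. A loss of Cdh1 with a gain of Cdh2 is known as the cadherin switch. In normal pancreas Cdh1 and Epcam are made by acinar, ductal and islet cells, whereas Vim, Zeb1, Zeb2, Twist1 and Snai2 are made mainly by fibroblasts and other stromal cells, and Vim and Zeb2 also by leukocytes. In bulk tissue a change in such a gene cannot be assigned to a change in the number of cells of a type or in the RNA per cell.

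The total count per library ranged from 29766575 in MC control 2 to 38745907 in KMC 2. CPM stands for the count divided by the TMM-adjusted library total of its comparison, and SE is the standard error of a log2 fold change. The acinar list held all 20 of its genes in every library, so the labelled tissue was present, but its share of the counts differed widely. It was 37.0%, 28.8% and 28.4% in the MC libraries and 41.0%, 33.6% and 45.3% in their controls. In the libraries labelled HC it was 5.61%, 7.16% and 4.58%, against 6.998% and 5.50% in their controls. The 2 KMC libraries had 38.4% and 19.9% and the 2 KC libraries 55.0% and 49.2%. The acinar share was therefore lowest in the HC experiment, in the transgenic libraries and the controls alike, and lower in both KMC than in both KC libraries.

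Map4k1, which encodes HPK1 and is also expressed in leukocytes, was read as a check of the labels. In the MC libraries its level was 8.32, 6.79 and 7.51 CPM, above 3.80, 4.14 and 2.34 CPM in the controls. In KMC it was 5.92 and 11.4 CPM against 0.545 and 1.55 CPM in KC. In the libraries labelled HC it was 7.33, 5.05 and 7.93 CPM, below the 15.4 and 11.5 CPM of their controls. Map4k1 moved with the leukocyte gene Ptprc in each comparison: the log2 fold changes were 1.13 and 1.66 in MC, 2.99 and 2.78 in KMC, and -0.99 and -0.95 in HC. Whether RNA of the transgenes is counted under Map4k1 is not given in the sources used here, so these values neither bear out nor contradict the labels, and each direction given for HC is that of the libraries labelled HC. The sexes also differed. Xist, which is transcribed from the inactive X chromosome, was at 406 and 306 CPM in KMC and 0.681 and 0.348 CPM in KC, while the Y-linked Ddx3y was at 0 counts in KMC and at 10.7 and 17.3 CPM in KC. Sex can therefore not be told apart from genotype in KMC against KC. HC 3 also stood apart, with 48.4 CPM of Ddx3y and 0.761 CPM of Xist against 0 counts of Ddx3y and at least 579 CPM of Xist in the other libraries of that experiment. Neither Xist nor Ddx3y is among the genes listed for the MC experiment, so sex was not read there.

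Per length of transcript, in RPKM from the TMM-scaled CPM, the epithelial genes and Vim were far above the transcription factors in every group. Mean Cdh1 was between 29.9 RPKM in KMC and 209 RPKM in HC, Epcam between 21.7 RPKM in KC and 244 RPKM in HC, and Vim between 15.1 RPKM in KC and 151 RPKM in the HC controls. Among the factors Zeb2 was first in MC at 2.12 RPKM, before Snai1 at 1.96 RPKM and Zeb1 at 1.58 RPKM, while in the MC controls Snai1 at 1.65 RPKM came before Zeb2 at 1.46 RPKM. Snai1 was first in both HC groups, at 11.1 RPKM in HC and 15.7 RPKM in the controls, in KMC at 2.96 RPKM and in KC at 0.772 RPKM. Twist2 was the lowest of the 10 genes in every group, from 0.0183 RPKM in KC to 0.244 RPKM in HC. Cdh2 was at 0.130 RPKM in KC and 1.31 RPKM in HC, so that Cdh1 exceeded it in every library, whatever the group.

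**Figure D1:**
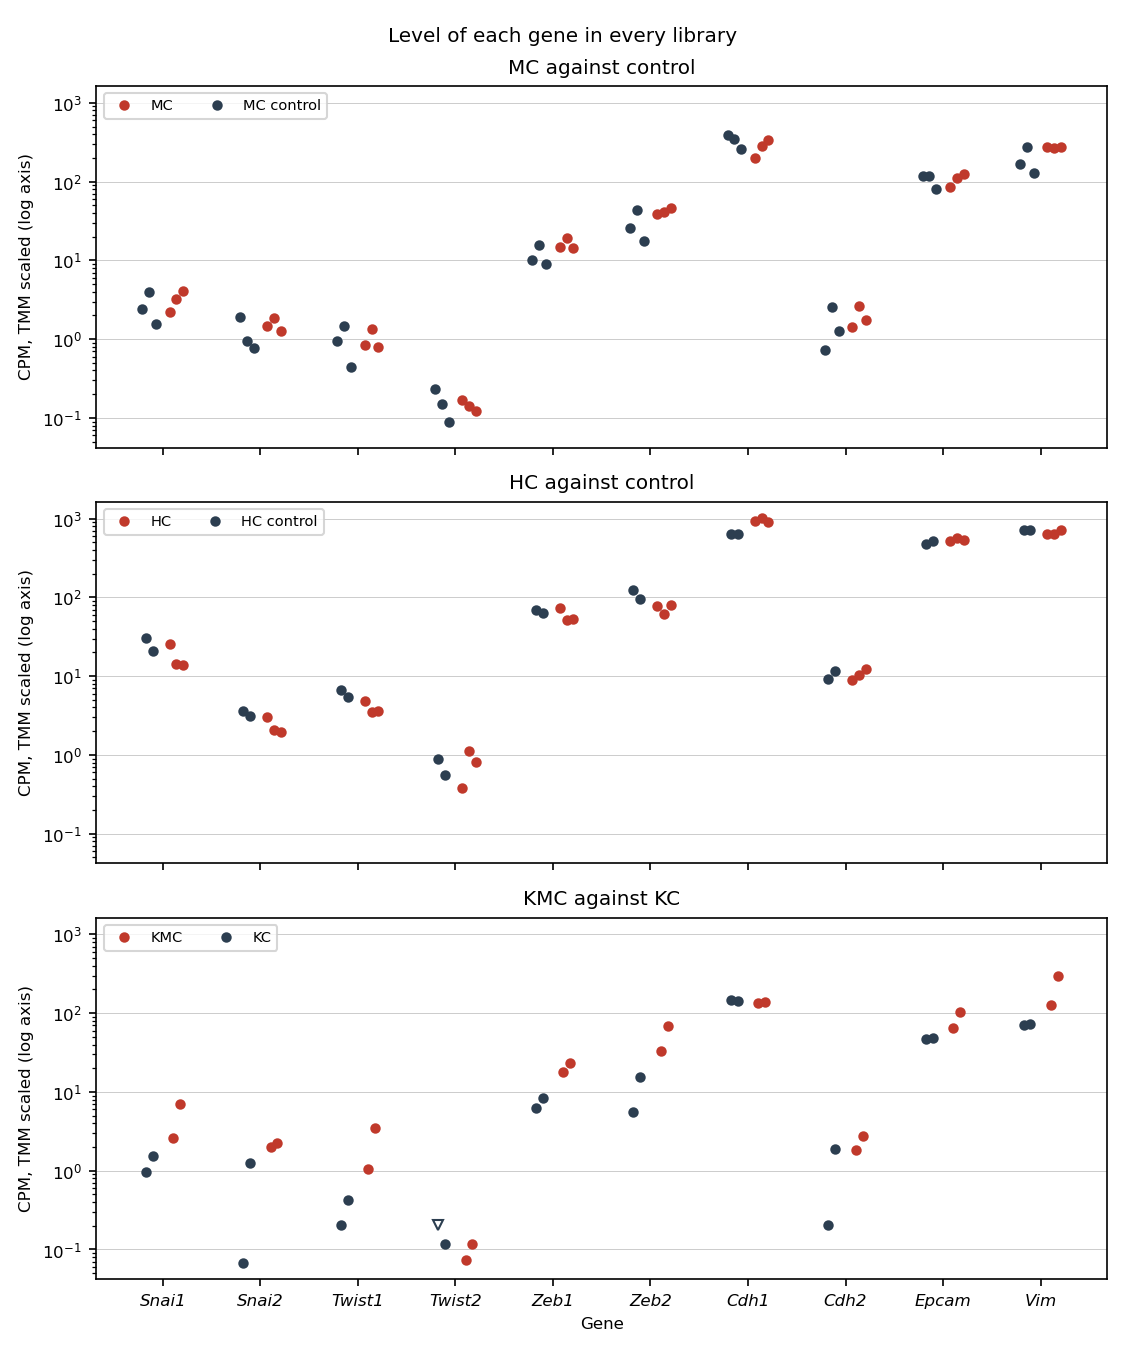
TMM-scaled CPM (log axis) of the 10 genes in each of the 15 libraries, with a panel for each comparison, dots for libraries, red for the transgenic group and dark blue for its control (KC for KMC). The open triangle marks the limit of 0.204 CPM for KC 1, which had 0 counts of Twist2; both KMC libraries lie above both KC libraries for Zeb1, Zeb2, Twist1, Snai1, Snai2, Epcam and Vim.

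Both groups of the HC experiment had higher means than all other groups for each of the 10 genes. Levels were scaled within each experiment, and library kit and age differ between experiments, so no test was made across them. Mean Vim was 71.4 ± 0.585 CPM (SD, n = 2) in KC, 189 ± 74.8 CPM (SD, n = 3) in the MC controls, 210.2 ± 116 CPM (SD, n = 2) in KMC, 272 ± 7.87 CPM (SD, n = 3) in MC, 668 ± 38.2 CPM (SD, n = 3) in HC and 715 ± 3.38 CPM (SD, n = 2) in the HC controls. The MC controls, KMC and MC overlapped in this order, KC lay below all of them, and both groups of the HC experiment lay above all others. Mean Cdh1 was 137 ± 0.817 CPM (SD, n = 2) in KMC, 144 ± 2.62 CPM (SD, n = 2) in KC, 274 ± 71.0 CPM (SD, n = 3) in MC, 332 ± 68.3 CPM (SD, n = 3) in the MC controls, 634 ± 0.515 CPM (SD, n = 2) in the HC controls and 954 ± 51.3 CPM (SD, n = 3) in HC. Only MC and its controls overlapped among the neighbours in that order. The HC experiment was thus the highest for an epithelial and a mesenchymal gene alike.

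KMC against KC, which differed by M46, gave the widest separation for the 10 genes. All of Snai1, Snai2, Twist1, Zeb1, Zeb2, Epcam and Vim were higher in both KMC libraries than in both KC libraries, Cdh1 was nearly level, and Cdh2 overlapped. With edgeR none of them passed the test (adjusted p up to 0.05 and a change of 1 or more on the log2 scale), as was true of nearly all genes: 3 of 15733 genes tested, 0.0191%, were called, and these were Xist, Ddx3y and the Y-linked Kdm5d, named after their values were seen.

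Zeb1, a repressor of Cdh1 and of the miR-200 family, was at 18.1 CPM in KMC 1 and 23.3 CPM in KMC 2, against 6.33 CPM in KC 1 and 8.40 CPM in KC 2. Its log2 fold change was 1.49 with an SE of 0.34 and an edgeR adjusted p of 0.083. The lower KMC library had more Zeb1 than the higher KC library. Zeb2, its paralog, was at 32.9 and 68.0 CPM in KMC and at 5.58 and 15.4 CPM in KC (log2 fold change 2.25, SE 0.57, edgeR adjusted p 0.0983). The libraries of each group differed from each other more for Zeb2 than for Zeb1, and the groups again did not overlap.

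Snai1, induced early by TGF-β and by injury, was at 2.58 CPM in KMC 1 and 7.005 CPM in KMC 2, against 0.953 CPM in KC 1 and 1.55 CPM in KC 2, a log2 fold change of 1.92 (SE 0.61) with an edgeR adjusted p of 0.131. Snai2, which is more common in stromal cells, was at 2.01 and 2.24 CPM in KMC and 0.0681 and 1.24 CPM in KC, the KC values resting on 1 and 32 counts. The KMC libraries were close to each other for Snai2 and the spread lay between the KC libraries, which left an SE of 0.91 on the log2 fold change of 1.61. For Twist1, a factor of mesoderm and of activated fibroblasts, the 2 KMC libraries had 1.06 and 3.44 CPM (43 and 289 counts) and the 2 KC libraries 0.204 and 0.426 CPM (3 and 11 counts). Its log2 fold change of 2.78 (SE 0.80, edgeR adjusted p 0.113) was the highest of the 9 genes tested, and it came from the gene with the fewest counts among them in KC 2. Twist2 had 3 and 10 counts in KMC and 0 and 3 counts in KC and did not pass the filter on low counts; the 0 in KC 1 allows up to 0.204 CPM, so no difference was detectable at this depth. Such limits cover counting error only.

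The cadherins did not part in the way of a switch. Cdh1 was at 136 and 137 CPM in KMC and 146 and 142 CPM in KC, a log2 fold change of -0.08 (SE 0.42, edgeR adjusted p 0.924). Both KMC libraries were below both KC libraries, by a margin far under the SE, and the sign depended on the scaling: with library size alone Cdh1 was 1.38 higher on the log2 scale, in a fit whose median over all genes was itself shifted to 1.47 from 0.03 with TMM, and without a filter, where that median was 0.30, it was 0.01 higher. Cdh2 was at 1.84 and 2.79 CPM in KMC and 0.204 and 1.90 CPM in KC, with 3 counts in KC 1. KC 2 and KMC 1 were level for Cdh2, so that its log2 fold change of 1.08 (SE 0.84, edgeR adjusted p 0.44) rested on KC 1.

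Epcam, a homophilic adhesion molecule of epithelia, was at 65.5 and 104 CPM in KMC and 47.2 and 47.9 CPM in KC, a log2 fold change of 0.84 (SE 0.39) with an edgeR adjusted p of 0.225. An epithelial gene was thus higher in KMC beside the mesenchymal ones. Vim was at 128 CPM in KMC 1 and 292 CPM in KMC 2, against 71.0 CPM in KC 1 and 71.8 CPM in KC 2, a log2 fold change of 1.56 (SE 0.53, edgeR adjusted p 0.144). The KC libraries were alike for Vim and the KMC libraries differed more than 2-fold, with KMC 2 high, as it was for Snai1, Twist1, Zeb2 and Epcam.

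At an unadjusted p under 0.05 in edgeR, 5 of the 9 genes tested were higher (Snai1, Twist1, Zeb1, Zeb2 and Vim) and 0 lower, beside 16.1% of all genes tested that were higher and 9.48% that were lower. The groups did not overlap for 7 higher genes and 1 lower gene (Cdh1), where 34.4% of all genes tested were higher and 30.9% lower without overlap. DESeq2 called those same 5 genes, with adjusted p-values from 0.00157 for Zeb2 to 0.0333 for Snai1, in a fit that called 13.7% of all genes, and it left out Epcam at 0.184. Without KMC 1, edgeR called Snai1, Twist1, Zeb1, Zeb2 and Vim as well, the lone KMC 2 being assumed to vary as the KC libraries do, while without KMC 2, KC 1 or KC 2 it called 0 of the members. The number of all genes called went from 3 to 2312 without KMC 1, 76 without KMC 2 and 0 without KC 1 or KC 2. Each of these fits left 1 library in a group, so no count of members at an unadjusted p is given for them.

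Among 17 other EMT regulators, 7 were higher and 2 lower at an unadjusted p under 0.05 in KMC, with a median log2 fold change of 0.55 beside 0.03 over all genes. The TGF-β receptor Tgfbr2 had the smallest p and was the most abundant of them over the 4 libraries, at 127 CPM in KMC and 24.5 CPM in KC (log2 fold change 2.37, SE 0.55, edgeR adjusted p 0.0856). The 2 lower genes, Ovol2 and Esrp2, named after their values were seen, are an epithelial repressor of Zeb1 and an epithelial splicing regulator, with log2 fold changes of -1.54 and -0.87. Of 18 mesenchymal genes 16 were tested, 14 were higher at that p and 0 lower, and the median log2 fold change was 2.72. The gelatinase Mmp2 had the smallest p (log2 fold change 2.65, SE 0.51, edgeR adjusted p 0.0796), and fibronectin, Fn1, the highest level over the 4 libraries, with means of 789.8 CPM in KMC and 65.6 CPM in KC. The 20 epithelial junction and keratin genes were divided, 9 being higher and 11 lower, with a median of -0.03. At that p Krt7 and Cldn4 were among the higher ones and Crb3 and Cldn3 were lower, Krt7 leading with a log2 fold change of 2.41 (SE 0.69, edgeR adjusted p 0.113). Krt18, the most abundant gene of the list over the 4 libraries, had means of 172 CPM in KMC and 237 CPM in KC. Of the other cadherins 6 of 8 were tested and 3 were higher at that p, led by Cdh6 (log2 fold change 2.42, edgeR adjusted p 0.108), while the most abundant over the 4 libraries, Pcdh1, was at 26.6 CPM in KMC and 31.1 CPM in KC. None of the genes in these lists was called by edgeR.

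Markers of stromal and immune cells moved with the members in KMC. The 8 leukocyte genes together had 209 and 482 CPM in KMC and 45.1 and 73.6 CPM in KC, all 8 being higher without overlap, and the most abundant was Laptm5 at 116 CPM against 15.7 CPM. The 8 macrophage genes summed to 541 and 1369 CPM in KMC and 152 and 162 CPM in KC, again all 8 without overlap, with C1qa the most abundant at 198 against 41.2 CPM. The 10 fibroblast and stellate genes summed to 2229.9 and 6333 CPM in KMC and 496 and 953 CPM in KC, all 10 without overlap, with Col3a1 at 1801 against 291 CPM. None of these marker genes was at 0 counts in any of the 4 libraries. All 20 acinar genes were lower, 19 of them without overlap, with a median log2 fold change of -1.99. The part of these cell types in the values of Zeb1, Zeb2, Twist1, Snai1 and Vim was not tested.

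Ratios of counts within a library are free of the scaling. For each count of Ptprc, the pan-leukocyte gene CD45, there were 3.84 and 4.99 counts of Vim in KMC and 22.7 and 7.14 in KC. For Zeb2 the same ratio was 0.985 and 1.16 in KMC and 1.78 and 1.53 in KC. Both genes were therefore lower relative to Ptprc in KMC than in KC, without overlap, although both were higher relative to all genes. Vim counts for each Col1a1 count were 0.309 and 0.175 in KMC and 1.13 and 0.589 in KC, again lower in both KMC libraries. Col1a1 itself had a log2 fold change of 3.49 in KMC, beside a median of 1.93 in the fibroblast and stellate list. In MC the ratio of Vim to Col1a1 was 0.819, 0.455 and 0.360 against 0.626, 0.438 and 0.811 in the controls. In HC it was 0.343, 0.623 and 0.263 against 0.245 and 0.329. The groups of both experiments overlapped. Within the epithelial genes, Cdh1 counts for each Epcam count were 2.08 and 1.31 in KMC and 3.10 and 2.97 in KC. For each Krt8 count they were 1.08 and 0.595 in KMC and 0.671 and 0.973 in KC, which overlapped.

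The log2 ratio of Cdh2 to Cdh1 counts was -6.21 in KMC 1 and -5.62 in KMC 2, against -9.48 in KC 1 and -6.23 in KC 2. Both KMC libraries were above both KC libraries, but KMC 1 and KC 2 differed little, and without KC 1 the difference between group means went from 1.94 to 0.32. The log2 ratio of Vim to Epcam was 0.97 and 1.49 in KMC and 0.59 in each KC library, a difference of 0.64 without overlap.

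**Figure D2:**
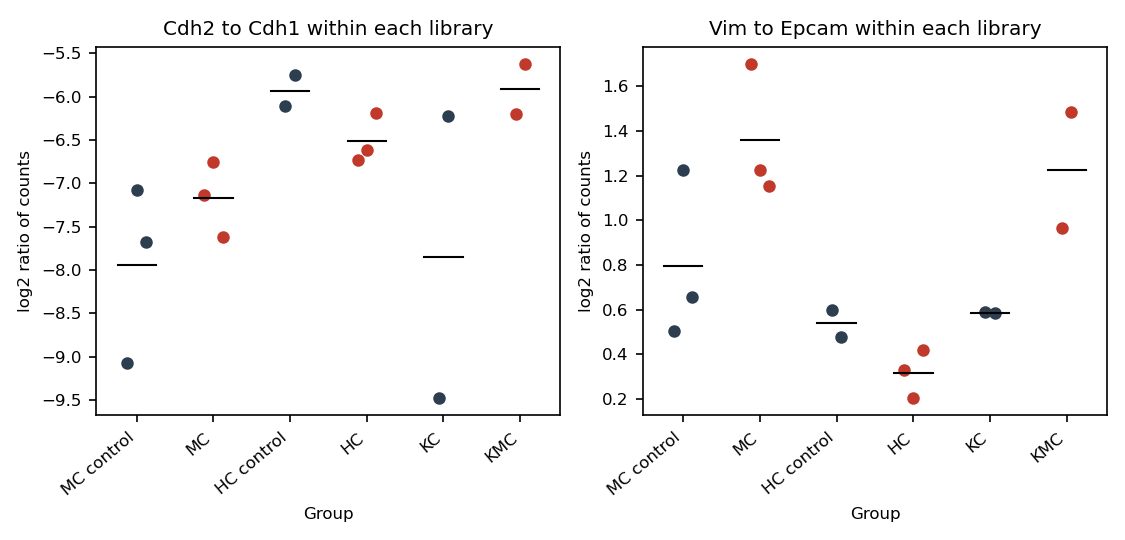
Log2 ratio of Cdh2 to Cdh1 counts (left) and of Vim to Epcam counts (right) in each of the 15 libraries by group, with dots for libraries, red for transgenic groups, and bars for group means. KC 1, at -9.48, is the lowest library for Cdh2 to Cdh1, and MC 1, at 1.70, the highest for Vim to Epcam.

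In the HC experiment, which set libraries labelled with the HPK1 transgene against wild-type controls after cerulein, the direction was the other way for several genes. Cdh1 was higher in all 3 libraries labelled HC, and Snai2, Twist1, Zeb2 and Vim were lower in all 3 than in both controls. None passed the test in edgeR, in which 104 of 18407 genes, 0.565%, were called.

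Cdh1 was at 941 CPM in HC 1, 1010.4 CPM in HC 2 and 910.5 CPM in HC 3, against 634 CPM in each control. Its log2 fold change was 0.59 with an SE of 0.14 and an edgeR adjusted p of 0.135. The 2 controls differed by less than 1 CPM and all 3 HC libraries were well above them. DESeq2 gave Cdh1 an adjusted p of 2.72e-06, below the fold change required for a call. Cdh2 was at 8.86, 10.3 and 12.5 CPM in HC and 9.15 and 11.8 CPM in the controls, and its log2 fold change of 0.01 (SE 0.21) changed sign with library size alone, with another filter and with some libraries left out. The cadherins thus differed in Cdh1 and not visibly in Cdh2, whose groups overlapped throughout.

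Zeb2 was at 77.7, 61.0 and 81.0 CPM in HC and 122 and 96.4 CPM in the controls, a log2 fold change of -0.58 (SE 0.16, edgeR adjusted p 0.179). Zeb1 was at 73.4, 51.6 and 52.6 CPM in HC and 70.1 and 62.5 CPM in the controls, with a log2 fold change of -0.16 (SE 0.17). HC 1 was above both controls for Zeb1 and HC 2 and HC 3 were below them, whereas for Zeb2 all 3 were below. Snai1 was at 25.7, 14.2 and 14.02 CPM in HC and 30.2 and 20.8 CPM in the controls, a log2 fold change of -0.50 (SE 0.31). HC 1 lay between the controls for Snai1, as it was also the highest HC library for Snai2, at 3.01 CPM against 2.10 and 1.97 CPM in HC 2 and HC 3 and 3.59 and 3.10 CPM in the controls. For Twist1 the HC libraries had 4.87, 3.46 and 3.62 CPM and the controls 6.68 and 5.40 CPM, a log2 fold change of -0.60 (SE 0.24, edgeR adjusted p 0.305). Twist2, at 0.384, 1.11 and 0.825 CPM in HC and 0.889 and 0.563 CPM in the controls, overlapped.

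Epcam was at 513, 561 and 533 CPM in HC and 469.7 and 514 CPM in the controls, a log2 fold change of 0.12 (SE 0.13). Vim was at 645, 646 and 712 CPM in HC and 712 and 717 CPM in the controls, a log2 fold change of -0.10 (SE 0.13, edgeR adjusted p 0.785). The Epcam groups overlapped by HC 1 and the second control, and those of Vim were separated by less than 1 CPM.

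At an unadjusted p under 0.05 in edgeR, Cdh1 was higher and Twist1 and Zeb2 were lower, 3 of the 10 genes tested, where 8.39% of all genes were higher and 7.47% lower. Without overlap of the groups, 1 gene was higher (Cdh1) and 4 were lower (Snai2, Twist1, Zeb2 and Vim), where 17.5% of all genes were higher and 16.1% lower. DESeq2 called 2.54% of all genes and 0 of the 10. Without HC 1 the edgeR count at an unadjusted p under 0.05 went from 3 to 6 of the 10 genes. Snai1, Snai2 and Zeb1 were added. Over all genes the count went from 2919 of 18407 to 3844 of 18143 in that fit. Without HC 2 or HC 3 there were 2 members (Zeb2 and Cdh1), beside 1993 of 18223 and 2171 of 18237 genes. Leaving out either control left 1 control library, so no such count is given. The number of all genes called went from 104 to 379 without HC 1, to 3 without HC 3 and to 0 without HC 2 or either control.

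The epithelial junction and keratin genes followed Cdh1. Of 20, 15 were higher without overlap and 1 lower (Cldn4), with a median log2 fold change of 0.29. At an unadjusted p under 0.05, 9 were higher and 1 lower. Crb3, a polarity protein, had the smallest p (log2 fold change 0.73, SE 0.12, edgeR adjusted p 0.0587), and Krt8, the acinar and ductal keratin, was the most abundant over the 5 libraries, at 1653, 1871 and 1746 CPM in HC and 1159.5 and 1091 CPM in the controls. Krt19, at 1497, 2151 and 1783 CPM in HC, was above Krt8 in HC 2 and HC 3 and below it in HC 1. Of the mesenchymal genes 13 of 18 were lower without overlap and 0 higher, with a median of -0.62, and 9 were lower at an unadjusted p under 0.05. Periostin, Postn, had the smallest p in that list (log2 fold change -1.01, SE 0.28, edgeR adjusted p 0.172), and Fn1 had means of 1068 CPM in HC and 1932 CPM in the controls. Among the other EMT regulators 4 were higher at that p (Esrp2, Ovol1, Esrp1 and Grhl2, all of them epithelial factors) and 5 lower (Tgfbr1, Tgfb2, Tgfbr2, Tgfb1 and Prrx1), with Esrp2 first (log2 fold change 0.51, SE 0.10, edgeR adjusted p 0.0781) and Tgfbr2 the most abundant (402 against 523 CPM). These counts of 5 or fewer were given names after the values were seen. Of the other cadherins Cdh17, the liver-intestine cadherin, fell by 1.61 on the log2 scale (SE 0.20, edgeR adjusted p 0.0428), the only gene called in the 4 lists, and Pcdh1, the most abundant, was at 163 CPM against 123 CPM.

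Leukocyte and macrophage genes were lower in the libraries labelled HC. The 8 leukocyte genes summed to 464, 318 and 409.9 CPM in HC and 838 and 512 CPM in the controls, 7 of 8 being lower without overlap, with Laptm5 the most abundant at 125 against 220.1 CPM. The 8 macrophage genes summed to 979.8, 855 and 1214 CPM and to 2153 and 1389 CPM in the controls, 7 of 8 without overlap, with C1qa at 236 against 368 CPM. The fibroblast and stellate list, at 8499, 4858 and 10219 CPM in HC and 10869 and 9584 CPM in the controls, was lower in 7 of 10 genes, 4 of them without overlap, with Col3a1 at 1985 against 2886 CPM. None of the genes of these 3 lists was at 0 counts. For each Ptprc count there were 10.3, 18.4 and 14.5 Vim counts in HC and 6.12 and 9.88 in the controls, and 1.24, 1.74 and 1.65 Zeb2 counts against 1.05 and 1.33. Zeb2 was thus lower relative to all genes and, in HC 2 and HC 3, higher relative to Ptprc than in both controls. The log2 fold changes of the leukocyte genes ran from -1.04 for Cd52 to -0.11 for Ptpn6, beside -0.58 for Zeb2. The direction of such a ratio therefore depends on the leukocyte gene chosen. The part of leukocytes in the level of Zeb2 was not tested.

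Within libraries, the log2 ratio of Cdh2 to Cdh1 was -6.73, -6.62 and -6.19 in HC and -6.11 and -5.75 in the controls, lower in all 3 libraries by 0.58 between the means. That of Vim to Epcam was 0.33, 0.20 and 0.42 in HC and 0.60 and 0.48 in the controls, and it too was lower without overlap. Cdh1 counts for each Epcam count were 1.84, 1.80 and 1.71 in HC and 1.35 and 1.23 in the controls, so that Cdh1 stood out from the other epithelial adhesion gene. Relative to Krt8 it did not: the ratio was 0.569, 0.540 and 0.521 in HC and 0.547 and 0.582 in the controls, which overlapped.

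**Figure D3:**
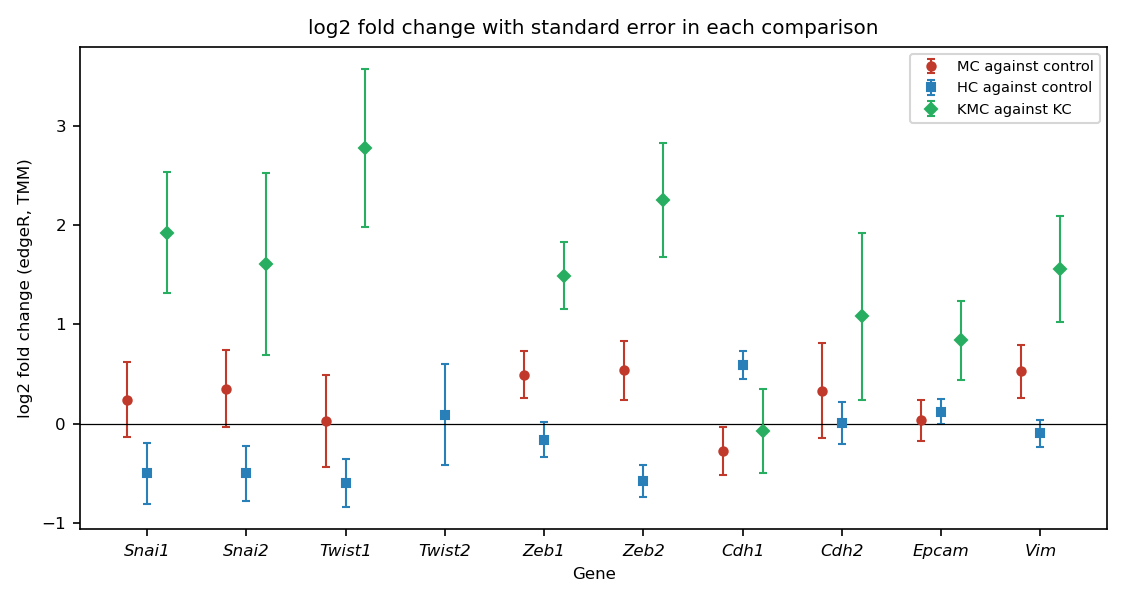
edgeR log2 fold change (points) with its standard error (bars) for each gene in MC against control, HC against control and KMC against KC. Twist2 is shown for HC alone because it was below the count filter elsewhere; Twist1 in KMC against KC is the highest point, at 2.78, and in HC Twist1 is the lowest, at -0.60.

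MC against control, the effect of M46 after cerulein, did not separate the groups for any gene tested. Of the 9 genes tested, 0 were called by edgeR or by DESeq2, 0 had an unadjusted p under 0.05 in edgeR, and the groups overlapped for each of them. The MC table lists fewer genes than the others, selected in a way not given in the sources used here, so its shares of all genes are not comparable with those of HC and KMC. Over all 13902 genes tested edgeR called 0 (0%), DESeq2 3.26%, and at an unadjusted p under 0.05 edgeR had 9.2% higher and 5.46% lower. Groups did not overlap for 10.9% of all genes that were higher and 9.89% that were lower.

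Vim was at 275, 264 and 279 CPM in MC and 167, 272 and 127 CPM in the controls, a log2 fold change of 0.53 (SE 0.27, edgeR adjusted p 0.384). The MC libraries were nearly identical for Vim, and MC control 2 stood among them while the other controls were lower. Zeb2 had the same pattern, with 38.6, 41.6 and 46.5 CPM in MC and 25.6, 43.9 and 17.7 CPM in the controls (log2 fold change 0.54, SE 0.30). Zeb1 was at 14.9, 19.4 and 14.5 CPM in MC and 10.01, 15.7 and 8.90 CPM in the controls, a log2 fold change of 0.49 (SE 0.24, edgeR adjusted p 0.369). For each of Vim, Zeb1 and Zeb2, 2 controls were below all MC libraries and MC control 2 was not. Without MC control 2, Zeb1, Zeb2, Cdh2 and Vim had an unadjusted p under 0.05 in edgeR. Over all genes 4166 of 14129 did so, against 2038 of 13902 with every library. None of the members was called, and the number of all genes called went from 0 to 718. Without MC 1 it went to 171, again with 0 of the members.

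Snai1 was at 2.23, 3.20 and 4.099 CPM in MC and 2.41, 4.02 and 1.57 CPM in the controls, and the groups covered nearly the same range. Snai2 was at 1.49, 1.88 and 1.26 CPM in MC and 1.88, 0.953 and 0.764 CPM in the controls. Twist1 was at 0.845, 1.36 and 0.790 CPM and at 0.959, 1.49 and 0.449 CPM in the controls, and its log2 fold change of 0.03 (SE 0.46) turned negative when MC 2 or MC control 3 was left out. Twist2 had between 2 and 7 counts in each of the 6 libraries and did not pass the filter.

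Cdh1 was at 199, 284 and 340.2 CPM in MC and 390.3, 349.8 and 257 CPM in the controls, a log2 fold change of -0.28 (SE 0.24, edgeR adjusted p 0.579) that became 0.05 with library size alone, where the median of all genes was shifted to 0.29. Cdh2 was at 1.42, 2.63 and 1.73 CPM in MC and 0.727, 2.59 and 1.26 CPM in the controls, a log2 fold change of 0.33 (SE 0.48). MC 1 was the lowest library for Cdh1 and MC control 1 for Cdh2. The highest log2 ratio of Cdh2 to Cdh1, -6.75 in MC 2, and the lowest, -9.07 in MC control 1, differed widely while the groups overlapped. Epcam was at 84.7, 113 and 125 CPM in MC and 118, 117 and 80.9 CPM in the controls, with a log2 fold change of 0.03 (SE 0.20). The log2 ratio of Vim to Epcam was 1.70, 1.23 and 1.15 in MC and 0.51, 1.22 and 0.66 in the controls, overlapping through MC control 2.

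None of the genes in the 4 lists around the members was called in MC. All 17 mesenchymal genes tested were higher in MC, with a median log2 fold change of 0.64 beside -0.02 over all genes. At an unadjusted p under 0.05, 3 of them were higher (Sparc, Postn and Cdh11), and 4 did not overlap (Sparc, Cdh11, Thy1 and Lgals1). Sparc, a matrix glycoprotein, had the smallest p and the highest level, 452 against 287 CPM (SE 0.25 on a log2 fold change of 0.65, edgeR adjusted p 0.305). Of 20 epithelial junction and keratin genes 16 were lower, with a median of -0.27, and 3 were lower at that p (Jup, Dsp and Krt19). Plakoglobin, Jup, had the smallest p (log2 fold change -0.45, SE 0.11, edgeR adjusted p 0.158), and Krt18 was the most abundant, at 899 against 1222 CPM. Of 17 other EMT regulators 1 was higher at that p (Tgfbr2, also the most abundant over the 6 libraries, at 81.3 against 47.7 CPM) and 3 lower (Esrp1, Ovol2 and Smad4), Esrp1 having the smallest p (log2 fold change -0.53, SE 0.14, edgeR adjusted p 0.174). None of the 6 other cadherins tested had a p under 0.05, Cdh6 being lowest in p (log2 fold change 0.83, SE 0.59) and Pcdh1 highest in level (28.2 against 29.9 CPM). These names, too, were given after the values were seen where they are not the first or the most abundant of a list.

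Leukocyte genes summed to 300.0, 316 and 430.4 CPM in MC and 172, 259 and 102 CPM in the controls, all 8 being higher and 6 without overlap, with Laptm5 at 92.7 against 52.4 CPM. Macrophage genes summed to 581, 709.7 and 899.7 CPM in MC and 303, 545 and 256 CPM in the controls, with C1qb at 141 against 70.3 CPM. The fibroblast and stellate genes summed to 2019, 2766 and 2920.4 CPM in MC and 1237, 2459 and 1036 CPM in the controls, with Col3a1 at 1153 against 699 CPM. MC control 2 was the highest control for all 3 lists, as it was for Vim, Zeb1, Zeb2 and Cdh2, and none of the genes in these lists was at 0 counts. For each Ptprc count there were 7.18, 6.43 and 5.32 Vim counts in MC and 12.5, 13.7 and 15.2 in the controls, and 1.01, 1.02 and 0.888 Zeb2 counts against 1.92, 2.22 and 2.11. Relative to this leukocyte gene Vim and Zeb2 were lower in all 3 MC libraries than in all controls, including MC control 2. Ptprc had the largest log2 fold change of the 8 leukocyte genes, 1.66 beside a list median of 1.13. The smallest was that of Itgb2, 0.56, near 0.53 for Vim and 0.54 for Zeb2. The size of such a ratio therefore depends on the leukocyte gene chosen. The part of leukocytes and fibroblasts in the levels of Vim, Zeb1 and Zeb2 was not tested.

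Other cell type lists were followed for each comparison. In KMC against KC the median log2 fold changes were 0.78 for 8 ductal genes (most abundant Spp1), 0.31 for 8 endothelial genes (Pecam1), 0.81 for 6 smooth muscle and pericyte genes (Rgs5), -0.25 for 9 islet genes (Ins2), 0.13 for 4 mesothelial genes (Upk3b) and -1.52 for the 4 adipocyte genes tested (Fabp4). For HC they were 0.29 for the ductal genes (Spp1), -0.36 for the endothelial genes (Pecam1), -0.23 for the smooth muscle and pericyte genes (Rgs5), 0.77 for the islet genes (Gcg), 0.63 for the mesothelial genes (Msln), -0.57 for the adipocyte genes tested (Fabp4) and -0.13 for the acinar genes (Ctrb1). In MC they were 0.38 for the ductal genes (Spp1), 0.17 for the endothelial genes (Pecam1), 0.67 for the smooth muscle and pericyte genes (Rgs5), -0.02 for the islet genes (Ins2), 0.68 for the mesothelial genes (Upk3b), 3.67 for the adipocyte genes (Fabp4) and -0.68 for the acinar genes (Ctrb1). The adipocyte list stood out in MC, where all 5 genes were higher without overlap, summing to 126, 73.5 and 48.2 CPM against 31.5, 31.2 and 37.7 CPM in the controls. Adipocytes also make Vim, and their part in its level was not tested.

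The effects were compared with each other in a single edgeR model over the 15 libraries, on 14909 genes. Between MC and HC the effects differed in 142 genes, 0.952%, and in 0 of the 10 members, while DESeq2 called 618 genes and library size alone 1 gene, again with 0 members. The edgeR number of genes was 0 without MC 2, MC control 1, MC control 3, HC 2, HC 3 or the first HC control, 12 without MC 3 and 493 without MC control 2. Cdh1 came nearest, with an MC effect 0.87 lower on the log2 scale (-0.87, SE 0.31) and an edgeR adjusted p of 0.202, and Zeb2 differed by 1.11 (SE 0.55, edgeR adjusted p 0.391). Between KMC and MC, the 2 comparisons that differ by M46, edgeR called 0 genes (0%) and 0 members. Twist1 had the largest of the 10 differences, 2.68 (SE 0.82, edgeR adjusted p 0.151), and was the only member among 607 of 14909 genes that DESeq2 called. When KMC 1 was left out edgeR called Twist1, Zeb2, Epcam and Vim among 1766 of 15004 genes, and when KC 2 was left out Snai2 and Zeb2 among 1921 of 15012 genes. The opposite signs of Zeb2 and Cdh1 in MC and HC are therefore not shown to be a difference between the transgenes by this test. Age, library kit, experiment and the label of the controls (B control and WT) differ with the transgenes.

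Genes whose levels ran closest to a member over the 15 libraries, after the mean of each experiment was subtracted, were found among 13646 genes by the root mean square (RMS) difference of log2 CPM. For Zeb1 these were Rbms3 (RMS 0.0878) and Dnm1 (0.111), where the median over all genes was 0.556. For Zeb2 they were Dab2 (0.098) and Ccdc88a (0.138), with a median of 0.810. Vim was nearest to Anxa1 (0.139) and Pdlim4 (0.143), with a median of 0.582. On the epithelial side Cdh1 was nearest to Fam83h (0.147) and C77080 (0.16), with a median of 0.405, and Epcam to Cttn (0.086) and Commd10 (0.0906), with a median of 0.431. Cdh2, with few counts, had no gene as near: Sema3d was at 0.316 and Fgfr4 at 0.323, with a median of 0.849. The experiment mean removes the differences between experiments, so this likeness describes the variation within them.

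The members lie on 7 chromosomes in GENCODE vM21 (GRCm38): Snai1 (ENSMUSG00000042821) at chr2:167538195-167542814, Zeb2 (ENSMUSG00000026872) at chr2:44983632-45117395 and Vim (ENSMUSG00000026728) at chr2:13573927-13582826, Snai2 (ENSMUSG00000022676) at chr16:14705852-14709385, Twist1 (ENSMUSG00000035799) at chr12:33957671-33959829, Twist2 (ENSMUSG00000007805) at chr1:91801461-91848028, Cdh1 (ENSMUSG00000000303) at chr8:106603351-106670246 and Epcam (ENSMUSG00000045394) at chr17:87635979-87651129, with Zeb1 (ENSMUSG00000024238) and Cdh2 (ENSMUSG00000024304) on chromosome 18. Zeb2 and Cdh2 are on the minus strand and the others on the plus strand. Exons of Zeb2 overlap Zeb2os and Gm27761, those of Zeb1 overlap Gm10125 and those of Twist2 overlap Gm29100 on the opposite strand. Whether strand was used in counting is not given in the sources used here. The overlap may therefore affect the counts of these 3 genes, in a direction that is not known.

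Since the zinc finger factors bind the E-box CACCTG, promoters were searched for it on both strands (CAGGTG on the other), from 250 bases before to 50 bases after each RefSeq start site (GRCm38.p6). It was present in 20.2% of 32851 promoters. Of the 10 members 6 had a promoter entry (Epcam, Snai1, Twist1, Twist2, Vim and Zeb2), and Epcam and Snai1 held the motif. In the epithelial junction and keratin list it was in 14 of 21 promoters (66.7%), Cldn3, Cldn4, Crb3, Krt7 and Krt8 among them, and in the mesenchymal list in 1 of 11 promoters (9.09%), that of Sparc. Of the 11 genes of the epithelial list with the motif, 8 were lower in KMC than in KC, 5 of them without overlap (Cldn3, Crb3, Krt18, Ocln and Marveld2), and 3 were higher, 2 of them without overlap (Krt7 and Cldn4), where 30.9% of all genes were lower and 34.4% higher without overlap. In HC 8 of these 11 genes were higher without overlap and 1 lower (Cldn4), beside 17.5% and 16.1% of all genes. In MC 3 were lower without overlap (Cldn3, Crb3 and Dsp) and 0 higher, beside 9.89% and 10.9% of all genes. Of the 4 genes of that list with a promoter entry and no motif, 1 was higher without overlap in KMC (Ctnnb1), 3 likewise in HC (Ctnnd1, Jup and Tjp1), and 2 were lower without overlap in MC (Jup and Tjp1). These were named after their values were seen. The lists were not drawn up from promoter sequence, and a match describes the letters of the window and does not show binding.

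The upstream sequences of Epcam, the epithelial member that was higher in KMC beside the repressors, and of Snai1, a repressor with the motif in its own promoter, are given 5′ to 3′ on the plus strand with the E-boxes in capitals. That of Epcam is chr17:87635729-87635978, with motifs starting 187 and 19 bases before the start site, and that of Snai1 is chr2:167537945-167538194, with a motif starting 126 bases before it.
Epcam: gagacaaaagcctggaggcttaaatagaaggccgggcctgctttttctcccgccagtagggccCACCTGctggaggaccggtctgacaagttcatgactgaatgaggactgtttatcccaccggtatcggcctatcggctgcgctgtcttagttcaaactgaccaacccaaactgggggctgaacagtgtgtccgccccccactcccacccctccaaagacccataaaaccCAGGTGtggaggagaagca
Snai1: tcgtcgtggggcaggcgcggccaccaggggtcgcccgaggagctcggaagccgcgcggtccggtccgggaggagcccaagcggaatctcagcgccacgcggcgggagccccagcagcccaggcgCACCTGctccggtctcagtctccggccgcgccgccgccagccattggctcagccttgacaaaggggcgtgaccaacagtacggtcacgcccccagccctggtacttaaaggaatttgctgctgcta

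These libraries have limits that bear on all of the genes. Groups held 2 or 3 libraries of pooled RNA, so a member could differ in a group and not be called. Age and sex differed with genotype in KMC against KC, and Map4k1 does not settle the HC label. Protein, cell shape and the cells in which Zeb1, Zeb2, Vim or Cdh1 were transcribed were not analysed here. A loss of Cdh1 with a gain of Cdh2 did not pass the test in any comparison.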

How the data were processed

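RNA-seq of 15 pancreas libraries was analysed. The authors aligned reads to GRCm38 (mm10) with STAR, summarised them by GENCODE gene, and deposited the counts as 3 tables without normalization; the submitters' notes name STAR 2.6.1a and HTSeq 0.6.1. The authors also deposited a table of fold changes and p-values for MC against control, which was not used. Of the listed genes, 15164 of 15175 and 49326 of 49585 were matched to the annotation.

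Libraries were grouped by the labels. Low counts were removed by filterByExpr, TMM gave the scaling, and edgeR 4.0.16 (glmQLFit, glmQLFTest; R 4.3.3) gave the tests for each pair of groups, with Benjamini-Hochberg adjustment over all genes tested. Genes were called at adjusted p up to 0.05 with a change of 1 or more on the log2 scale, and an SE is that change over the root of its F. RPKM used the union of exons. Of 200 genes changed by 2 on the log2 scale in simulated counts, edgeR recovered 98% in the MC design (13801 genes), 96.5% in the HC design (18108 genes) and 61.5% in that of KMC against KC (15399 genes). Each simulated gene took the spread given by the trend over genes, and the changed genes were drawn from those with higher counts. These shares therefore do not cover genes of wider spread or low counts. In the MC libraries themselves 0 of 13902 genes were called. Cidec, at a log2 fold change of 4.42 there, had an edgeR adjusted p of 0.0995. The limit of a count of 0 is 3 counts. Alternatives were DESeq2 1.42.0, other scalings and filters, another form of the edgeR fit, the replicate number as a block, 1 fit over the HC, KC and KMC tables, and each library left out.

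The 10 members and the gene lists were chosen with earlier results of these data known. Of each pathway list the gene with the smallest p and the most abundant gene were named in each comparison, and of each cell type list the most abundant, by the mean over all libraries of the comparison; for 6 members the 2 nearest genes were named, and Map4k1 was given as the check of the labels. Other names were given where a count was small, after the values were seen. Some items are not reported here.

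Total counts deposited were 31337783 (MC 1), 34140494 (MC 2), 33658995 (MC 3), 34144236 (MC control 1), 29766575 (MC control 2), 31545654 (MC control 3), 34061460 (HC 1), 31791225 (HC 2), 31863898 (HC 3), 35173856 (HC control 1), 37829604 (HC control 2), 32769898 (KMC 1), 38745907 (KMC 2), 30208416 (KC 1) and 33912190 (KC 2).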

Additional observations from a re-analysis of the deposited data

How the results depend on the processing

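In KMC against KC, where edgeR called 0 members and 3 genes, DESeq2 called 5 members and 2159 genes, library size alone 8 and 4714, the joint fit of HC, KC and KMC libraries called 5 members and 3230 genes, and no filter 0 and 9. Leaving out a library gave 0 to 5 members and 0 to 2312 genes. In HC against control, 0 members were called under every alternative run, while the 104 genes became 468 with DESeq2, 395 without a filter, 1 in the joint fit, and 0 to 379 with a library left out. In MC against control, 0 members were called under every alternative run, and the 0 genes became 453 with DESeq2, 1 with library size alone and 0 to 718 with a library left out. Between the MC and HC effects 0 members were called in each run, and the 142 genes became 618 with DESeq2 and 1 with library size alone. As differing between the KMC and MC effects, DESeq2 called 1 member and 607 of 14909 genes, where edgeR called 0, and leaving out a library gave 0 to 4 members and 0 to 1921 genes.

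With the replicate number as a block, the replicate block fit called 4 members (Snai1, Twist1, Zeb1 and Zeb2) and 2464 genes in KMC against KC, 339 genes in HC and 0 in MC. The numbers do not pair the libraries: deviations of same-numbered libraries correlated at 0.0665, 0.296 and -0.297 in MC, 0.189 and 0.170 in HC and 0.0514 in KMC.

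The log2 fold change reversed its sign in 17 of the members' alternative fits, and the cause was not tested. In KMC, Cdh1 became 1.38 with library size alone and 0.0117 without a filter. In HC, Cdh2 became -0.0224 with library size alone, -0.000837 at a filter of 1 CPM, -0.12 with the replicate block and ranged from -0.16 to 0.20 with a library left out (-0.14 without HC 3), and Twist2 became -0.0504 with the replicate block and ranged from -0.26 to 0.45 (-0.21 without the second control). In MC, Cdh1 became 0.0452 with library size alone, and with a library left out Twist1 ranged from -0.27 to 0.48 (-0.26 without MC 2), Cdh2 from -0.00416 to 0.98 and Epcam from -0.11 to 0.19 (-0.09 without MC 3, -0.00108 without MC 2). In 337 other fits the members kept direction and side of the threshold, and in 27 they passed it. Low counts limit Twist2, Snai2, Twist1 and Cdh2, most of all in KC 1.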
